A study of Homo sapiens with 6 samples.

Results

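The genes described here are the 5 subunits of the transcription factor NF-kappaB (NFKB1, NFKB2, REL, RELA and RELB), 4 genes whose proteins inhibit or modulate it (NFKBIA, NFKBIE, NFKBIZ and TNFAIP3), and TRIL, a toll-like receptor accessory protein. They were taken by symbol, and all 10 had 1 row each among the 60616 gene identifiers of the tables. The libraries came from 12Z cells, an immortalized wild-type human line from endometriotic tissue, that is, endometrium-like tissue outside the uterus. Cells were given frankincense extract (70 ug/mL for 12 h, diluted in DMSO; frankincense is the resin of Boswellia trees) or DMSO alone as vehicle, with 3 libraries in each group. Both groups grew in 10% charcoal-stripped serum, which is depleted of steroid hormones, and all cells are of 1 line. No NF-kappaB stimulus such as TNF or bacterial lipopolysaccharide is named in the labels for either group, so the levels are those of cells without a stated stimulus.

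NF-kappaB factors are dimers of Rel-domain subunits. In resting cells IkB proteins, such as the product of NFKBIA, hold the dimers in the cytoplasm. Receptors for TNF, interleukin-1 or microbial products activate the IKK kinases, which mark IkB for destruction, and the freed dimers enter the nucleus. NFKBIA and TNFAIP3 are themselves classical NF-kappaB target genes, so that their products close a negative feedback loop. A slower, non-canonical route runs through the kinase NIK (MAP3K14) to dimers of RELB and the NFKB2 product p52. NF-kappaB activity and its cytokine output are widely studied in endometriosis.

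The libraries held 22615150 to 27615196 expected counts, and 3 counts in a library corresponded to 0.109 to 0.133 CPM (counts scaled to library size), a limit that covers counting error only. Frankincense replicate 3 stood apart from the other treated libraries, with a chi-square per degree of freedom of 14.2 and 12.3 against frankincense replicates 1 and 2, which differed from each other by 4.16. Keratin genes KRT8 and KRT18 and the mesenchymal gene VIM were abundant, and all 3 were called lower with frankincense. Of 8 mesenchymal markers 6 were called lower and 1 higher (median log2 fold change -1.05), with a summed TPM of 3214 to 3515 in frankincense libraries and 4139 to 4254 in vehicle libraries. Of 6 tested epithelial markers 4 were called lower and 2 (KRT7 and EPCAM) higher, and the list summed to 1379 to 1431 TPM in frankincense libraries and 1604 to 1640 TPM in vehicle libraries. By the same test, described below, 62.9% of all tested genes were called, 31.9% higher and 31.0% lower, so calls among markers were to be found in any list. The part of these marker shifts in the results was not tested. The epithelial cadherin CDH1 had 0 to 3 counts in frankincense libraries and 3 to 6 in vehicle libraries. Of 8 leukocyte markers 7 were under 1 TPM in every library, CD3E had 0 counts, and the exception was CD68, a lysosomal protein of macrophages and many other cells. The summed TPM of that list was 34.8 to 63.8 in frankincense libraries and 28.6 to 31.6 in vehicle libraries. All 5 endothelial markers were under 1 TPM in every library. The labels do not state that replicates were separate cultures, so p-values measure the spread between these libraries, which may be technical.

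Frankincense-treated cells had less RNA of the feedback inhibitors and of TRIL, more RELB, and, on counts, canonical subunits close to their vehicle level. TRIL was 13.5-fold lower, TNFAIP3 2.01-fold, NFKBIA 1.83-fold and NFKBIZ 1.66-fold lower, while RELB was 1.92-fold higher. Of the 10 genes, all of which passed the filter on low counts, 5 were called lower and 1 higher by edgeR's quasi-likelihood test at a Benjamini-Hochberg adjusted p under 0.05 over all genes tested. Over all 16719 tested genes, 62.9% were called, 31.9% higher and 31.0% lower. Most tested genes thus differed between the groups, and the 6 called of 10 are near that background. The CPM of the 2 groups did not overlap for 7 of the 10 genes, near the 67.5% of all tested genes. The median log2 fold change was -0.04 over the 10 genes, against -0.0016 over all tested genes. In RNA from a whole culture, fewer cells expressing a gene and less RNA per cell cannot be told apart.

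**Figure D1:**
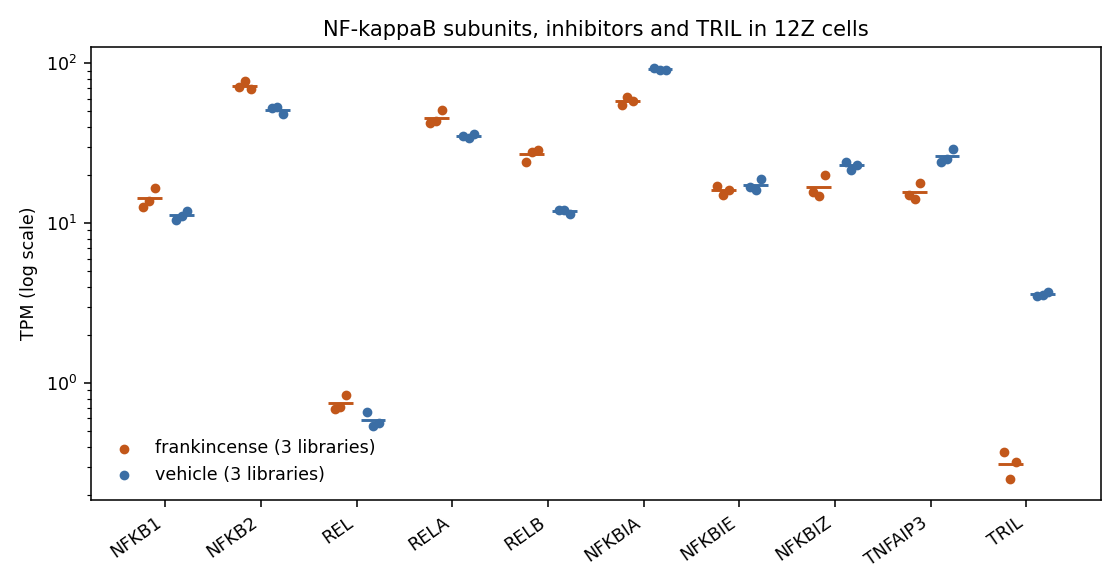
TPM (abundance scaled to transcript length and library, log axis) of each gene in every library, frankincense left of vehicle, with a line at the mean of each group of 3 libraries. In TPM all 5 subunits sat higher in every frankincense library than in any vehicle library, RELB by the widest margin relative to its level. NFKBIA, NFKBIZ, TNFAIP3 and TRIL sat lower in every frankincense library than in any vehicle library. Over all tested genes the median log2 fold change on log2(TPM + 1) was 0.20. The share of all tested genes whose TPM did not overlap between groups was not computed. In CPM, which is scaled differently, 7 of the 10 genes did not overlap, near the 67.5% of all tested genes.

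The RELA, NFKB1 and REL genes encode the subunits of the canonical pathway. RELA encodes p65, which carries the main activation domain (ENSG00000173039, GRCh38 chromosome 11, 65653596 to 65663094). It had 42.45, 43.56 and 51.34 TPM in frankincense libraries and 35.24, 34.29 and 36.18 TPM in vehicle libraries. An RNA on the opposite strand, AP001362.2, had 29 to 36 counts in frankincense libraries and 41 to 57 in vehicle libraries, against 1381 or more for RELA in every library. On counts the groups overlapped and the log2 fold change was 0.12 ± 0.056 (SE, edgeR adjusted p = 0.073). NFKB1 encodes p105 and its processed form p50 (ENSG00000109320, chromosome 4, 102501329 to 102617302). It had 12.54, 13.83 and 16.56 TPM in frankincense libraries and 10.53, 11.16 and 11.84 TPM in vehicle libraries. Its log2 fold change was 0.12 ± 0.079 (edgeR adjusted p = 0.21), with overlapping CPM and the highest value in frankincense replicate 3. REL encodes c-Rel, a subunit best known from lymphocytes (ENSG00000162924, chromosome 2, 60881521 to 60931610). It was the least abundant subunit, at 0.69, 0.71 and 0.84 TPM in frankincense libraries and 0.66, 0.54 and 0.56 TPM in vehicle libraries, with a log2 fold change of 0.13 ± 0.12 (edgeR adjusted p = 0.37). An overlapping non-coding transcript on the same strand, AC010733.2, had 152.1 to 209.2 counts in frankincense libraries and 162.2 to 218.5 in vehicle libraries. REL had 136 to 150 counts in frankincense libraries and 129 to 135 in vehicle libraries, so the division of reads between both genes makes its values uncertain.

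The subunits of the non-canonical pathway are RELB and NFKB2, which encodes p100 and its processed form p52. RELB (ENSG00000104856, chromosome 19, 45001430 to 45038198) was the member that rose. It had 24.18, 27.78 and 28.78 TPM in frankincense libraries and 12.12, 12.16 and 11.41 TPM in vehicle libraries. Every frankincense library lay above every vehicle library by a wide margin. The log2 fold change was 0.94 ± 0.077 (edgeR adjusted p = 8.1e-08), a value that 94.0% of the tested genes fell below. NFKB2 (ENSG00000077150, chromosome 10, 102394110 to 102402529) was the most abundant subunit, with 70.76, 77.99 and 69.06 TPM in frankincense libraries and 52.40, 53.27 and 48.31 TPM in vehicle libraries. Neither its TPM nor its CPM overlapped between groups. On counts its log2 fold change was 0.11 ± 0.053, which missed the threshold (edgeR adjusted p = 0.078) and passed it without frankincense replicate 3 (0.16, adjusted p = 0.0034).

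The levels of these subunits depend on the scale. On log2(TPM + 1), tested with limma, 4 of the 10 genes were called higher and 4 lower, against 1 and 5 on counts. Over all tested genes 59.1% were called on that scale, 44.2% higher and 14.9% lower, so the count of members called higher is near its background. NFKB2 stood at 0.49 (adjusted p = 0.00024), RELA at 0.36 (0.0036) and NFKB1 at 0.32 (0.025). The median of all tested genes moved to 0.20 on that scale. Relative to that median NFKB2 was at 0.30, RELA at 0.17, NFKB1 at 0.13 and REL at -0.06. When TPM was rescaled without the genes of the mitochondrial genome, NFKB2 and RELB were the members called higher. RELA and NFKB1 were thus called higher under some settings, and RELB under each of the 15 alternatives.

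**Figure D2:**
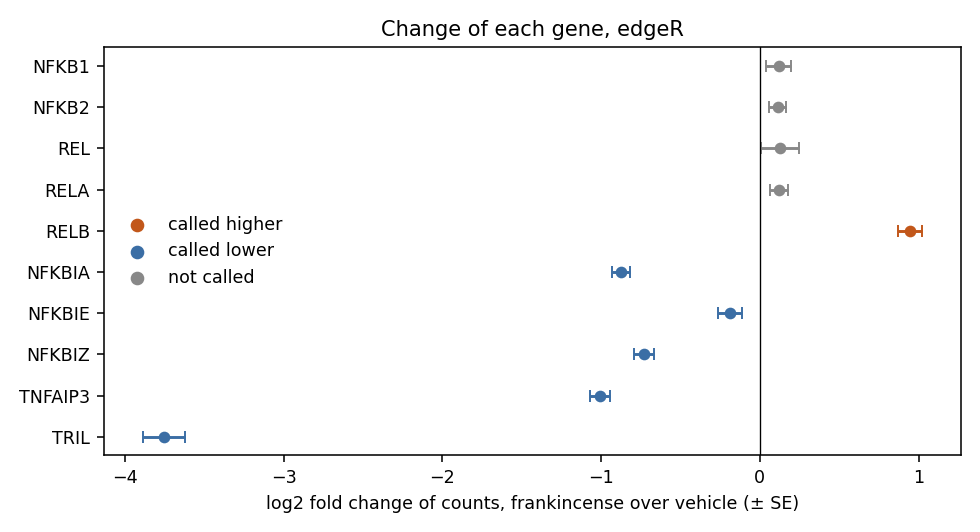
Log2 fold change of counts, frankincense over vehicle, with its SE (edgeR) for each gene. RELB lies at 0.94, the other subunits lie between 0.11 and 0.13, and TRIL lies at -3.76.

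Ratios between genes within a library do not depend on library scaling. The summed TPM of the 5 subunits, a level that does depend on scaling, was 150.6 to 166.6 in frankincense libraries and 108.3 to 111.4 in vehicle libraries. Rescaled without mitochondrial genes, this sum averaged 192.9 in frankincense libraries and 150.8 in vehicle libraries. RELB made up 16.8% ± 0.63 of that sum in frankincense libraries and 10.8% ± 0.22 in vehicle libraries (SD, n = 3 each). The share of NFKB2 was 45.3% ± 3.38 in frankincense libraries and 46.5% ± 1.71 in vehicle libraries, with overlapping groups. RELA held 28.5% ± 2.14 of the sum in frankincense libraries and 32.0% ± 1.33 in vehicle libraries, also with overlap. RELB and NFKB1 were near parity in vehicle libraries, and the RELB to NFKB1 ratio averaged 1.89 ± 0.139 in frankincense libraries against 1.07 ± 0.0955 in vehicle libraries. For the RELB share the exact two-sided permutation test over the 6 libraries gave p = 0.1, the smallest p that 3 libraries against 3 allow.

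**Figure D3:**
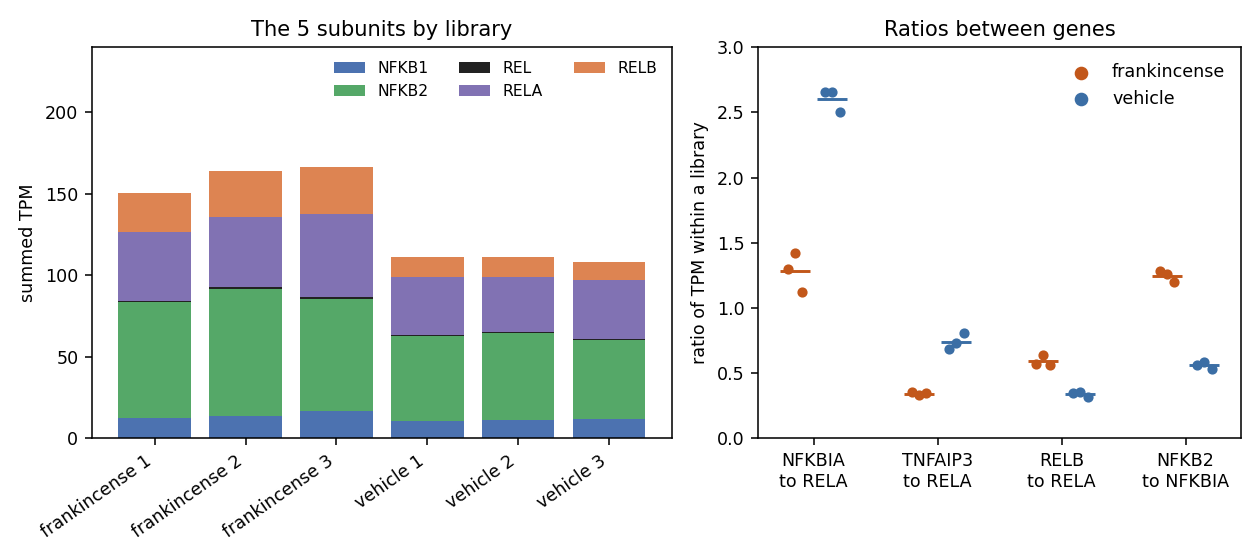
Left, summed TPM of the 5 subunits stacked by gene in each library; right, ratios of TPM within a library, with a line at the group mean. The RELB band takes 16.8% of the bar in frankincense libraries and 10.8% in vehicle libraries, and the ratio of NFKBIA to RELA averages 1.28 in frankincense libraries and 2.60 in vehicle libraries.

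NFKBIA, TNFAIP3, NFKBIZ and NFKBIE were each called lower on counts, by unequal amounts, as were 31.0% of all tested genes. These members were chosen with earlier results known, and the NFKBIE call was lost in most alternatives. The direction was not shared by all inhibitors. NFKBIB, which encodes the inhibitor IkB-beta, was called higher at 1.21 ± 0.079. Among 21 tested genes in a list that mixes other inhibitors with cofactors, 10 were called higher and 5 lower. Over all tested genes 31.9% were called higher. NFKBIA encodes IkB-alpha, the inhibitor that is degraded and resynthesized in each round of canonical signalling (ENSG00000100906, chromosome 14, 35401511 to 35404749). It had 55.18, 61.75 and 57.69 TPM in frankincense libraries and 93.51, 91.03 and 90.67 TPM in vehicle libraries. The groups were far apart relative to their spread, with a log2 fold change of -0.87 ± 0.057 (edgeR adjusted p = 7e-09). TNFAIP3 encodes A20, a ubiquitin-editing enzyme that terminates signalling upstream of IKK (ENSG00000118503, chromosome 6, 137867188 to 137883312). It had 14.97, 14.26 and 17.75 TPM in frankincense libraries and 24.16, 25.01 and 29.22 TPM in vehicle libraries. Every frankincense library was below every vehicle library, and the log2 fold change was -1.01 ± 0.061 (edgeR adjusted p = 3.6e-09). An antisense RNA that overlaps the start of TNFAIP3, AL357060.1, had 1 to 5 counts in frankincense libraries and 11 to 16 in vehicle libraries. Strand-specific preparation is not stated in the labels, and these counts are small beside those of TNFAIP3, at 850 to 949 in frankincense libraries and 1584 to 1919 in vehicle libraries.

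NFKBIZ encodes IkB-zeta, a nuclear IkB protein that works as a coactivator at a subset of NF-kappaB target genes, among them IL6 (ENSG00000144802, chromosome 3, 101827991 to 101861022). It had 15.60, 14.73 and 19.93 TPM in frankincense libraries and 24.15, 21.61 and 23.09 TPM in vehicle libraries. The groups did not overlap, although frankincense replicate 3 came close to the lowest vehicle library in TPM. The log2 fold change on counts was -0.73 ± 0.062 (edgeR adjusted p = 1.3e-07). NFKBIE encodes IkB-epsilon, a slower-acting inhibitor (ENSG00000146232, chromosome 6, 44258166 to 44265788). It had 17.09, 15.05 and 16.04 TPM in frankincense libraries and 16.94, 16.20 and 18.90 TPM in vehicle libraries, which overlap. Its log2 fold change was -0.19 ± 0.077 (edgeR adjusted p = 0.044). That call was lost in 5 of the 6 fits that left out a library, with adjusted p up to 0.15, and in 6 of 9 other settings.

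The level of inhibitor RNA relative to subunit RNA followed these values. The ratio of NFKBIA to RELA TPM was 1.30, 1.42 and 1.12 in frankincense libraries and 2.65, 2.65 and 2.51 in vehicle libraries. TNFAIP3 to RELA was 0.327 to 0.353 in frankincense libraries and 0.686 to 0.808 in vehicle libraries. Neither pair of ranges overlapped. That was fixed by the TPM already given, since NFKBIA and TNFAIP3 lay lower and RELA higher in every frankincense library than in any vehicle library. The exact two-sided permutation test over 6 libraries (p = 0.1 for each) therefore adds nothing to those values. In vehicle libraries NFKBIA was the most abundant of the 10 genes, followed by NFKB2, RELA, TNFAIP3, NFKBIZ and NFKBIE, each above the next in every library, and then by RELB and NFKB1, whose ranges overlapped. TNFAIP3 and NFKBIZ were nearly tied in vehicle replicate 1, at 24.16 and 24.15 TPM. In frankincense libraries NFKB2 came first, followed by NFKBIA, RELA and RELB without overlap. NFKBIZ, NFKBIE, TNFAIP3 and NFKB1 followed in this order, with ranges that overlapped among themselves. REL was the lowest of the 10 in vehicle libraries and TRIL in frankincense libraries.

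Because NFKBIA and TNFAIP3 are known targets of the factor they inhibit, the start regions of these genes are shown with the 10-base kappaB consensus, with NFKB1 as a subunit that was not called and TRIL as the gene that fell most. Windows were the 250 bases before an annotated transcript start in RefSeq's promoter table (GRCh38.p14), searched on both strands. The lines run 5′ to 3′ on the strand of the gene, with matches to the kappaB consensus in capitals, and leave out bases past the GENCODE gene start. For TNFAIP3, whose matches lie past that start but before the RefSeq start used, the 30 bases around them are given.
NFKBIA promoter, chr14:35404750-35404999, minus strand: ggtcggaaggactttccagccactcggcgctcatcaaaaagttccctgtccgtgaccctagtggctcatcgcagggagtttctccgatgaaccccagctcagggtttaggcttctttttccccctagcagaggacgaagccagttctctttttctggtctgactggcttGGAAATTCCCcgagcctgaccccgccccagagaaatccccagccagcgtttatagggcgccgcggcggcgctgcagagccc
TNFAIP3 matches, chr6:137867188-137867217, plus strand: ctttGGAAAGTCCCgtGGAAATCCCCgggc
NFKBIZ promoter, chr3:101827740-101827989, plus strand: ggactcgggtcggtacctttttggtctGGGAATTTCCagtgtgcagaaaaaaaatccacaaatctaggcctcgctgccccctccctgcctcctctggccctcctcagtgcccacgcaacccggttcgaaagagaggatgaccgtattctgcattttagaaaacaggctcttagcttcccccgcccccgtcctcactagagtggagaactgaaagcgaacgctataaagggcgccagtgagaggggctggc
NFKB1 promoter, chr4:102501109-102501328, plus strand: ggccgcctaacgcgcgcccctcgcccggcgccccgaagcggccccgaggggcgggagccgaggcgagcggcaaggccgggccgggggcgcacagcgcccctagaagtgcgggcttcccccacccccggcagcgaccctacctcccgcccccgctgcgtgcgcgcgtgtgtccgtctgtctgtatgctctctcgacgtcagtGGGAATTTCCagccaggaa
TRIL promoter, chr7:28958331-28958580, minus strand: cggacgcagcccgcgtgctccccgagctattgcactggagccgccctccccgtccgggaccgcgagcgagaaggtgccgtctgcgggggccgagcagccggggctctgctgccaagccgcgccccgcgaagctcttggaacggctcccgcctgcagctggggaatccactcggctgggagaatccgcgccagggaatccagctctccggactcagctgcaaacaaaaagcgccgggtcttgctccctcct
NFKBIA holds 1 match, printed as GGAAATTCCC and fitting the consensus on the opposite strand, 81 to 72 bases before its start, and TNFAIP3 holds 2, also fitting on the opposite strand, at 67 to 58 and 55 to 46 bases before its start. In the windows printed, NFKBIZ holds GGGAATTTCC further upstream, at 223 to 214 bases, and NFKB1 the same letters at 49 to 40 bases. A second window of NFKBIZ, not printed, holds GGGGTTTCCC at 239 to 230 bases before its own start. The second window of NFKB1 holds none. The window of TRIL holds none. RELB and NFKBIE were not among the entries. Of the 8 members with an entry, 6 had a match in at least 1 of their windows (NFKB1, NFKB2, REL, NFKBIA, NFKBIZ and TNFAIP3), counting matches that overlap on the 2 strands, and RELA and TRIL had none. Of the 13 windows of members 8 hold a match, beside 5.21% of all 35116 windows in the table. Counted by gene, 6.28% of the 27305 genes with an entry have a match in at least 1 window. The members with a match include genes that were called lower and genes that were not called. A match in letters is a description and does not show binding.

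TRIL encodes a leucine-rich repeat membrane protein known as an accessory of TLR4 and TLR3, best described in brain (ENSG00000255690, chromosome 7, 28953358 to 28958292). It had 33, 21 and 25 expected counts in frankincense libraries and 309, 394 and 378 in vehicle libraries, or 0.37, 0.25 and 0.32 TPM against 3.48, 3.57 and 3.71 TPM. All frankincense libraries were far below all vehicle libraries. The log2 fold change was -3.76 ± 0.13 (edgeR adjusted p = 1.8e-11), and 21 of the 16719 tested genes had a lower one. On log2(TPM + 1), which understates changes of low genes, it was -1.80. A long non-coding RNA on the opposite strand that overlaps its start, AC005013.1, had 0 counts in frankincense libraries and 1 to 2 in vehicle libraries. Of 5 astrocyte markers, AQP4 and S100B had 0 counts in every library and 4 were under 1 TPM throughout; GFAP was the exception. The summed TPM of that list was 2.34 to 2.56 in frankincense libraries and 0.50 to 2.29 in vehicle libraries.

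TLR4, the lipopolysaccharide receptor that TRIL is described to assist, had 0 counts in all 6 libraries, which allows up to 0.109 to 0.133 CPM in a library. Its coreceptor LY96 (MD-2) had 4 to 10 counts in frankincense libraries and 1 to 4 in vehicle libraries. CD14, which delivers lipopolysaccharide to TLR4, had 5 to 10 counts in frankincense libraries and 55 to 62 in vehicle libraries, a log2 fold change of -2.96 ± 0.28 (edgeR adjusted p = 3.9e-07). TLR3, the receptor for double-stranded RNA, was measured at 120, 121 and 131 counts in frankincense libraries and 81, 105 and 113 in vehicle libraries. It was called higher at 0.33 ± 0.13 (edgeR adjusted p = 0.041). That call did not survive leaving out frankincense replicate 2 (adjusted p = 0.0732) or 3 (0.0983), or vehicle replicate 1 (0.142) or 2 (0.103). The TLR3 call was also lost with DESeq2 (adjusted p = 0.126) and with edgeR without the filter on low counts (0.0578). On log2(TPM + 1) rescaled without mitochondrial genes it was lost as well (limma adjusted p = 0.0988).

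Of 28 genes in the list of toll-like receptor signalling, 18 were tested, and 9 were called higher and 5 lower; their median log2 fold change was 0.22 against -0.0016 over all tested genes. Those called were 77.8% of the list's tested genes, beside 62.9% of all tested genes. HSP90B1, the endoplasmic reticulum chaperone that folds toll-like receptors among many other clients, rose by 1.4 ± 0.071 on the log2 scale of counts, which is the scale of all changes of pathway genes given here. The receptor-associated kinase IRAK1 rose by 0.71 ± 0.055 to 142 ± 7.79 TPM, against 78.2 ± 0.473 TPM with vehicle. SARM1, an NAD-cleaving adaptor, rose by 0.46 ± 0.071 and the ubiquitin ligase PELI3 by 0.55 ± 0.095. The adaptors MYD88, TICAM1 and TICAM2 were called lower, at -0.41 ± 0.059, -0.31 ± 0.063 and -0.68 ± 0.15. On log2(TPM + 1) these 3 calls were lost. There 1 gene of the list was called lower and 10 higher, beside 14.9% lower and 44.2% higher over all tested genes. When TPM was rescaled without mitochondrial genes, the 3 calls were kept and 4 genes of the list were called lower.

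In the IKK complex, which phosphorylates IkB, 1 of the 3 genes was called on counts. IKBKB, which encodes the catalytic IKK-beta, was at -0.03 ± 0.052 (edgeR adjusted p = 0.61), and was above 0 under library size scaling and on TPM. IKBKG, which encodes the regulatory NEMO and has a near-identical pseudogene copy, was at 0.09 ± 0.055 (edgeR adjusted p = 0.16) and was called higher on log2(TPM + 1) (adjusted p = 0.00286). CHUK, which encodes IKK-alpha, the IKK of both routes, rose by 0.55 ± 0.075 to 11.2 ± 1.82 TPM, against 6.38 ± 0.913 TPM with vehicle. MAP3K14, which encodes NIK, fell by 0.92 ± 0.079, with 6.25, 5.74 and 6.78 TPM in frankincense libraries and 9.71, 9.71 and 11.10 TPM in vehicle libraries. The non-canonical kinase and RELB were called in opposite directions. IKBKE, an IKK-related kinase that is itself inducible, fell by 1.3 ± 0.084, MAP3K8 (TPL2, the kinase bound by p105) by 0.73 ± 0.084 and MAP3K3 by 0.47 ± 0.055. The MAP3K3 call was lost on log2(TPM + 1) (limma adjusted p = 0.0513). The linear ubiquitin ligase subunits RBCK1 and SHARPIN were higher at 0.42 ± 0.056 and 0.19 ± 0.065, as was the adaptor TAB3 at 0.35 ± 0.056. The SHARPIN call was lost without frankincense replicate 1 or vehicle replicate 1 or 3 (adjusted p of 0.11, 0.0673 and 0.0708). Of the 20 tested genes in this list 5 were higher and 5 lower, and the median was -0.02; 10 were higher and 3 lower on the TPM scale. The 10 calls on counts were 50.0% of the list, beside 62.9% of all tested genes, and on TPM 44.2% of all genes were higher and 14.9% lower. On counts 3 were called higher without vehicle replicate 1 and 3 without vehicle replicate 3.

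**Figure D4:**
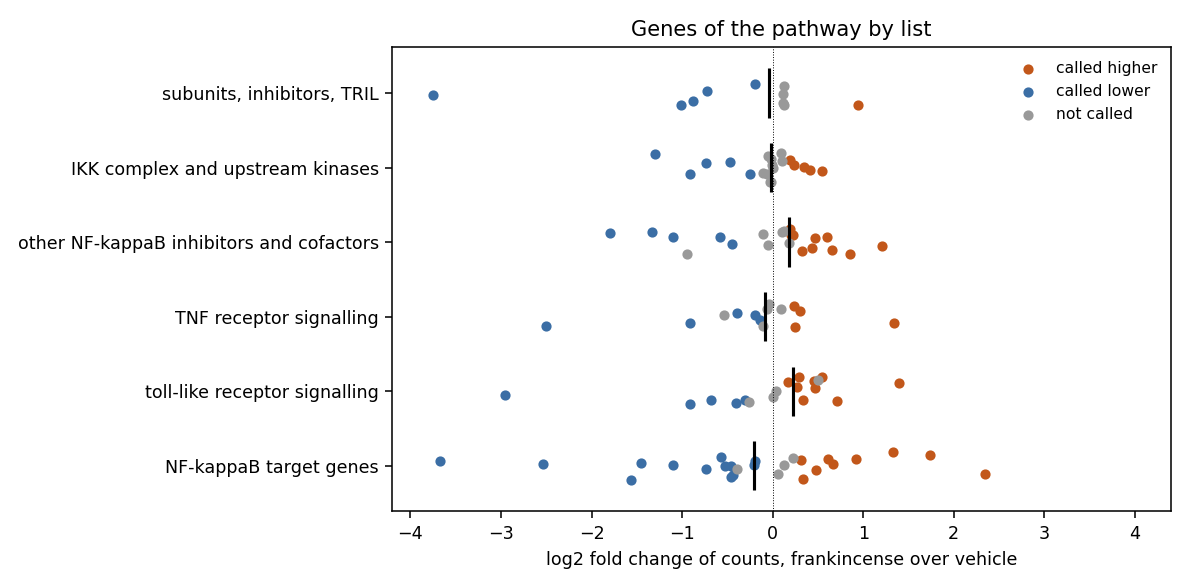
Log2 fold change of counts, frankincense over vehicle, for every tested gene of each list, coloured by its edgeR call, with a bar at the median of the list. Each list holds genes called in both directions, and the medians lie between -0.20 and 0.22.

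Other inhibitors and cofactors included genes that moved against NFKBIA. NFKBIB, which encodes IkB-beta, rose by 1.21 ± 0.079 (edgeR adjusted p = 7.4e-09), with 38.93, 36.68 and 36.73 TPM in frankincense libraries and 14.84, 13.07 and 14.71 TPM in vehicle libraries. The summed TPM of NFKBIA, NFKBIB and NFKBIE, a sum formed after their values were seen, was 110.5 to 113.5 in frankincense libraries and 120.3 to 125.3 in vehicle libraries. NFKBIB made up 33.5% ± 1.36 of that sum in frankincense libraries and 11.5% ± 0.563 in vehicle libraries, and NFKBIA 52.1% ± 2.40 and 74.4% ± 1.37 (SD, n = 3 each). BCL3, a nuclear IkB family member that binds p50 and p52, fell by 1.33 ± 0.065, with 23.1 ± 1.58 TPM in frankincense libraries and 50.7 ± 2.57 TPM in vehicle libraries. ZC3H12A (regnase-1, which degrades cytokine mRNAs) fell by 1.10 ± 0.062, the interleukin-1 receptor family inhibitor SIGIRR by 1.79 ± 0.13, and the A20 partner TNIP1 by 0.58 ± 0.052. The deubiquitinase CYLD rose by 0.60 ± 0.061, TOLLIP, a binding partner of toll-like and interleukin-1 receptors, by 0.65 ± 0.065, and NFKBIL1 by 0.85 ± 0.073. The list had 10 genes called higher and 5 lower among 21 tested, which is 71.4% called beside 62.9% of all tested genes, and its median was 0.18.

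At the TNF receptors, TNFRSF1A, the main signalling receptor for TNF, fell by 0.92 ± 0.051 to 84.5 ± 9.22 TPM, against 133 ± 2.62 TPM with vehicle. TNFRSF11B, the decoy receptor osteoprotegerin, fell by 2.51 ± 0.071 to 32.2 ± 5.72 TPM, against 157 ± 4.96 TPM with vehicle. TNFRSF12A, the receptor for TWEAK, which can engage the non-canonical route, rose by 1.34 ± 0.056 to 407 ± 7.56 TPM, against 133 ± 2.81 TPM with vehicle. LTBR, the lymphotoxin-beta receptor that also feeds the non-canonical route, was higher at 0.30 ± 0.051 and the adaptor TRAF5 at 0.24 ± 0.053. FADD, at 0.23 ± 0.094 (edgeR adjusted p = 0.047), lost its call without vehicle replicate 1 or 2 or frankincense replicate 1 or 2 (adjusted p of 0.192, 0.117, 0.117 and 0.179). TNFRSF1B, whose sign turned on the TPM scale, and TNFRSF11A, at -0.20 ± 0.066 and -0.39 ± 0.13, lost theirs without frankincense replicate 2 (adjusted p of 0.0977 and 0.0575). Without vehicle replicate 3 the first was at 0.0902, and without vehicle replicate 2 the second was at 0.0581. On log2(TPM + 1) TNFRSF11A was at -0.02 (limma adjusted p = 0.901). With DESeq2 the adjusted p was 0.0631 for TNFRSF11A and 0.063 for FADD. Among 14 tested genes 4 were called higher and 5 lower (median -0.09), so that 64.3% were called, near the 62.9% of all tested genes; 2 were lower without frankincense replicate 2 and 3 without vehicle replicate 2.

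Textbook NF-kappaB target genes were called in both directions. Of 34 such genes 26 were tested, and 13 were called lower and 9 higher (median -0.20); on the TPM scale 7 were lower and 12 higher. The 22 calls on counts were 84.6% of the tested genes of the list, beside 62.9% of all tested genes, and on TPM 44.2% of all genes were higher and 14.9% lower. Within the CXC chemokines for neutrophils the directions differed: CXCL1 fell by 1.45 ± 0.062, while CXCL2 and CXCL3 rose by 1.74 ± 0.062 and 1.33 ± 0.11. These 3 genes are close relatives, so reads could be divided between them. CXCL8 was at -0.20 ± 0.053 on counts and at 0.03 on log2(TPM + 1). The monocyte chemokine CCL2 fell by 3.68 ± 0.13 and the adhesion molecule VCAM1 by 2.53 ± 0.092. ICAM1, another adhesion molecule, was at 0.33 ± 0.11 (edgeR adjusted p = 0.023). It had 84.92, 91.25 and 129.42 TPM in frankincense libraries and 67.71, 66.32 and 71.08 TPM in vehicle libraries, and its call was lost without vehicle replicate 1 or 2 (adjusted p of 0.0598 and 0.0644). IL6 rose by 0.92 ± 0.12, with 17.36, 20.14 and 22.73 TPM in frankincense libraries and 10.83, 6.73 and 10.71 TPM in vehicle libraries, and IL1A rose by 2.34 ± 0.14. The anti-apoptotic target BIRC3 fell by 0.46 ± 0.084 and the proteoglycan SDC4 by 0.74 ± 0.073, while the protease PLAU rose by 0.48 ± 0.057. TNF itself had 0 to 1 counts in every library and was not tested.

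The tables also give the length of each gene's transcripts, weighted by their abundance in the library, which bears on isoform use. Of the 10 genes, 0 had lengths that did not overlap between groups, where 16.9% of all tested genes had. NFKB2 averaged 1716 ± 118 bases in frankincense libraries and 1876 ± 83.9 bases in vehicle libraries, well under its longest annotated transcript of 3416 bases. NFKBIE was at 1275, 1477 and 1543 bases in frankincense libraries and at 1271 to 1304 bases in vehicle libraries, so frankincense replicate 1 lay within the vehicle range. TRIL has 1 transcript, and RELB averaged 1868 ± 45.9 bases in frankincense libraries and 1853 ± 110 bases in vehicle libraries. The change of RELB therefore came with no detectable change of transcript length at this number of libraries.

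Profiles over the 6 libraries were compared by the Euclidean distance between centred log2 CPM. Closest to RELB were PARP11, DCAF4 and RAD51D, at distances of 0.0872, 0.0886 and 0.0891. Closest to TRIL were PKD1L1-AS1, VIT and GBP2, at 0.325, 0.402 and 0.574. With 2 groups of 3 libraries genes with a similar size of change lie close together: the log2 fold changes were 0.93 to 0.98 for the first set and -3.76 to -3.38 for the second.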

How the data were processed

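Total RNA (1.5 ug) of 12Z cells went into TruSeq RNA libraries, 3 for each group, per the labels' protocols. STAR and RSEM 1.3.1 with GRCh38 are named in the submitters' processing notes, without an annotation. The tables the authors deposited hold RSEM expected counts, TPM, FPKM (not used) and abundance-weighted transcript lengths, per the file headers. The gene name table gave symbols for 60419 of 60616 identifiers; positions are from GENCODE 29.

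Expected counts were rounded. The test was edgeR 4.0.16 (R 4.3.3; filterByExpr, TMM, robust glmQLFit, glmQLFTest, two-sided) with Benjamini-Hochberg adjustment over 16719 genes. It was checked on simulated data in which few genes changed. That check does not cover data in which most genes differ, as here. SE is the log2 fold change over the square root of F. Alternatives used limma 3.58.1 on log2(TPM + 1) or log2(TPM + 0.1), DESeq2 1.42.0, other scalings and filters, a replicate block and fits without each library.

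Members and lists were chosen with earlier results of these data known. Named genes are all members, the 4 genes with the smallest adjusted p per list and direction, 14 genes whatever their result, and for RELB and TRIL the 3 nearest genes with at least 5 CPM. Overlapping genes, markers, LY96 and TNF were named in addition.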

Additional observations from a re-analysis of the deposited data

How the results depend on the processing

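The 1 member called higher on counts became 3 with library size scaling, 4 on either TPM scale (pseudocount 1 or 0.1) and 2 on TPM rescaled after dropping mitochondrial genes, and was 1 to 2 when 1 library was left out. Members called lower numbered 4 to 5 in every alternative. RELB, NFKBIA, NFKBIZ, TNFAIP3 and TRIL kept their direction and their call in all 15 alternatives, with log2 fold changes of 0.89 to 1.17, -0.92 to -0.65, -0.77 to -0.44, -1.06 to -0.70 and -3.93 to -1.80. The 1 library fits also called NFKB1 without frankincense replicate 1 (adjusted p = 0.047), RELA without vehicle replicate 3 (0.043) and NFKB2 without frankincense replicate 3 (0.0034).

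On either TPM scale IKK and upstream kinases were higher in 10 and lower in 3, TNF receptor genes lower in 2, toll-like receptor genes lower in 1 and target genes lower in 7; over all genes 2491 were lower (2490 with a pseudocount of 0.1), against 5177 on counts. TNF receptor genes called lower were 3 with library size scaling or DESeq2 and 2 on TPM without mitochondrial genes, and toll-like receptor genes called lower were 3 at a minimum of 5 CPM. With 1 library left out, IKK genes called higher ranged from 3 to 6 and TNF receptor genes called lower from 2 to 5. Without mitochondrial genes the summed TPM of the 5 subunits was 192.9 in frankincense libraries and 150.8 in vehicle libraries. Signs reversed on log2(TPM + 1) and log2(TPM + 0.1) for TNFRSF1B (0.043 and 0.045), CXCL8 (0.0262 and 0.0264) and IKBKB (0.25 and 0.26); IKBKB was also at 0.0439 with library size scaling and 0.0731 on TPM without mitochondrial genes. The cause of these shifts was not tested.

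The labels do not state whether the replicate numbers pair the libraries, which were treated as unpaired. Deviations of same-numbered libraries correlated at 0.05, 0.10 and 0.04, and each library correlated best with its own number. The margins were small, with frankincense replicate 3 at 0.02 against vehicle replicate 1. Deviations were taken from the mean of each group, which ties these correlations together, so they cannot decide whether libraries were paired. With the replicate block, 1 member was called higher and 4 lower, NFKBIE being at an adjusted p of 0.051. Depth limits TRIL after treatment (21 to 33 counts) and REL.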
